A study of Canis lupus familiaris with 18 samples.

Results

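The genes described here are the inhibitors and targets of p53 in canine high grade oligodendroglioma (HGO). The names MDM2, MDM4, PPM1D, BAX, BBC3, GADD45A, SESN1, ZMAT3 and TP53I3 were looked up by symbol in the deposited counts, and 7 of the 9 had a row among 29993 genes. BBC3 and ZMAT3 had no row under their symbols and were not analysed here. All 7 passed the filter on low counts.

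The study asked whether HGO of French bulldogs differs in gene expression from HGO of boxers and Boston terriers, related breeds that are also prone to glioma. RNASeq counts were given for 18 libraries of formalin-fixed, paraffin-embedded tumor tissue from the forebrain, 11 from French bulldogs and 7 from the comparison group, which held 4 boxers and 3 Boston terriers. All the tumors arose naturally in pet dogs, the labels give neither age nor treatment, and no normal brain was analysed here. Comparison dogs keep the numbers of their labels, which are 1, 3, 4 and 5 for boxers and 2, 6 and 7 for Boston terriers.

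The p53 protein is a transcription factor that is stabilised by DNA damage and other stress and switches on genes for cell cycle arrest, DNA repair and cell death. MDM2 is the ubiquitin ligase that marks p53 for degradation, MDM4 is its partner that blocks the activity of p53, and PPM1D is a phosphatase that reverses damage signals. MDM2 and PPM1D are themselves switched on by p53, so that they close a feedback loop, and extra copies of MDM2, MDM4 or PPM1D are known from several human cancers, gliomas among them. BAX carries out apoptosis at the mitochondrion, TP53I3 is an oxidoreductase induced by p53, GADD45A acts in growth arrest and repair, and SESN1 is a stress sensor that restrains mTORC1.

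Library totals over genes were 8212452 to 13169880, and 3 counts were worth 0.223 to 0.351 normalized CPM (counts scaled by the library total and its TMM factor). Values below are on this scale and are compared between libraries but not between genes, since gene lengths were not used. French bulldogs 2 and 8 have the same case number in their labels. Their log2 CPM correlated at r = 0.981, against at most 0.945 in the 63 other pairs of the same breed, and the chi-square between their counts was 9.14 per degree of freedom, against 30.1 or more in the other pairs. The pair was thus closer than any of those 63 pairs, and whether it comes from 1 dog was not tested. Every n of 11 below counts it as 2 samples, and some results are also given with it as 1 dog or left out. French bulldog 6 went against its labelled tissue in its cell type markers. Its sum over 7 oligodendrocyte lineage markers was 43.5 CPM, against 1127 to 6884 in the other 17 libraries, with OLIG2, a defining factor of the lineage, at 0 counts. Its astrocyte markers summed to 22.5 CPM (515 to 5385 elsewhere), its neuron markers to 0.937 CPM (60.6 to 1319 elsewhere) and its myelinating oligodendrocyte markers to 133 CPM (435 to 8041 elsewhere). Its sum over 9 macrophage and microglia markers was 5994 CPM, against 50.0 to 312 elsewhere. In bulk tissue, fewer cells of a type and less RNA per cell cannot be told apart.

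None of the 7 members passed an adjusted p of 0.05 between French bulldogs and the comparison group in edgeR's quasi-likelihood test, in which 1 of 16495 genes did (0.00606%). At an unadjusted p under 0.05, 1 of the 7 members passed, SESN1, while 10.6% of all genes did and 7.02% did with a higher level in French bulldogs. Without French bulldog 6 none of the members passed the adjusted test and SESN1 alone the unadjusted one, beside 0.0183% and 10.8% of genes, and without French bulldogs 2, 6 and 8 none passed either. DESeq2 called none of the members and 58 of 20885 genes (0.278%), and with French bulldogs 2 and 8 summed none of the members and 32 of 20884 genes (0.153%). The median log2 difference of the members was 0.06, and that of all genes tested was 0.04.

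**Figure D1:**
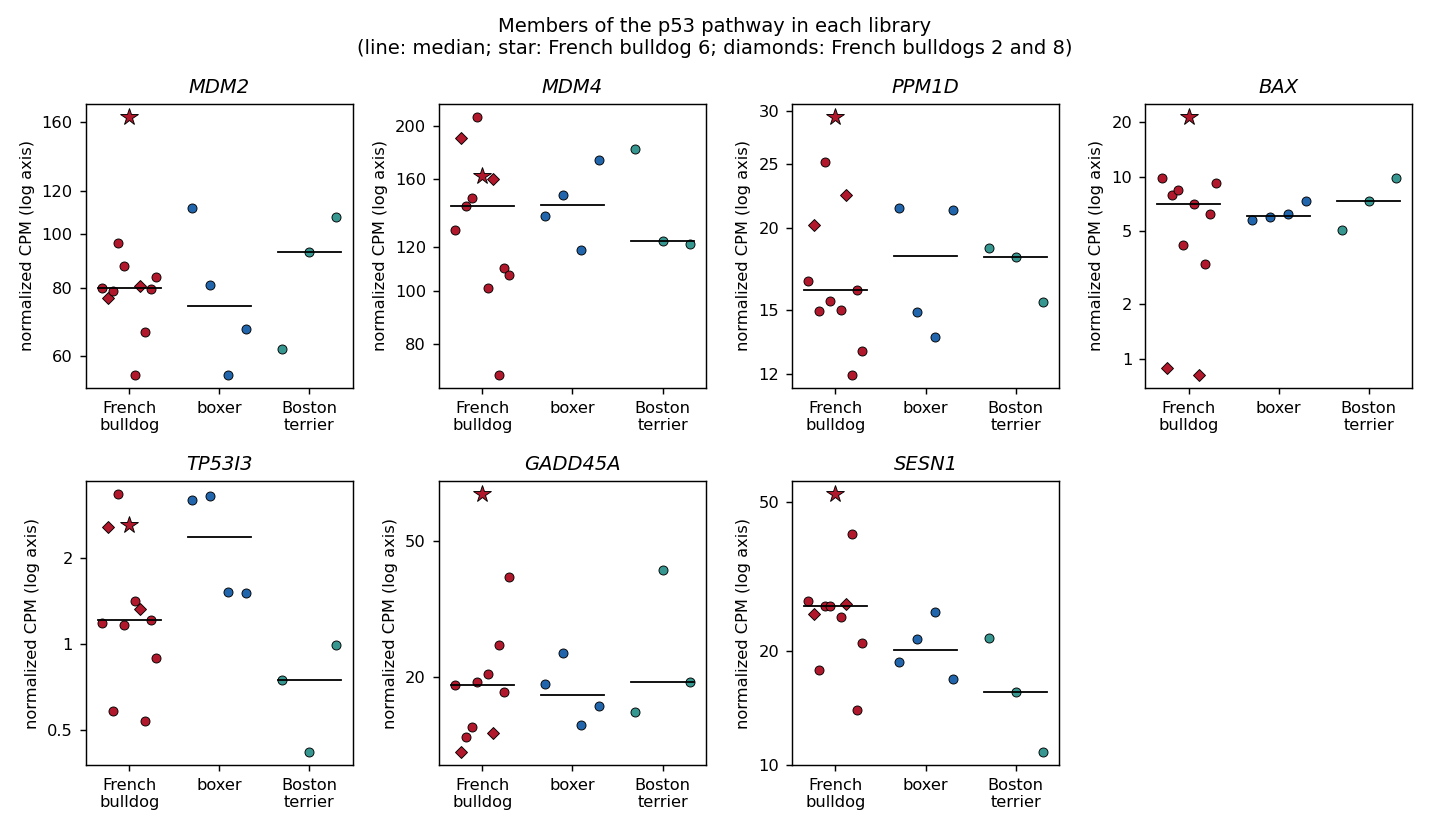
Normalized CPM (log axis) of the 7 members in each of the 18 libraries, by breed, with the median of each breed as a line. French bulldog 6 (star) is the highest library for MDM2, PPM1D, BAX, GADD45A and SESN1, and French bulldogs 2 and 8 (diamonds) are the lowest for BAX.

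MDM2 was measured at similar levels in all breeds. In the 11 French bulldogs its level ran from 55.5 CPM in French bulldog 7 through a median of 79.8 to 164 in French bulldog 6. The boxers had 112, 81.0, 55.4 and 67.1 CPM for numbers 1, 3, 4 and 5, and the Boston terriers had 61.8, 92.7 and 108 CPM for numbers 2, 6 and 7. Only French bulldog 6 lay above every comparison dog and no French bulldog lay below them all. The means were 86.3 ± 27.9 CPM (SD, n = 11) and 82.5 ± 22.3 CPM (SD, n = 7), and without French bulldog 6 the first became 78.5 ± 11.2 CPM (SD, n = 10). The log2 difference (French bulldogs minus comparison dogs) was 0.06 with a standard error of 0.20 and a 95% interval from -0.35 to 0.48 (edgeR, adjusted p = 0.938). Without French bulldog 6 it was -0.05, with an interval from -0.36 to 0.27.

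MDM4, the partner of MDM2, also overlapped between the groups. It ran from 70.2 CPM in French bulldog 9 through a median of 143 to 208 in French bulldog 5. Levels were 137, 150, 119 and 173 CPM in boxers 1, 3, 4 and 5 and 181, 123 and 122 CPM in Boston terriers 2, 6 and 7. The 4 lowest French bulldogs lay below all comparison dogs and the 2 highest above them, so that the comparison group sat inside their range. The log2 difference was -0.05 ± 0.19 (SE), with an interval from -0.44 to 0.35 (edgeR, adjusted p = 0.957). It was -0.05 without French bulldog 6 and -0.13 without French bulldogs 2 and 8.

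PPM1D had a narrow spread. Its lowest French bulldog was number 9 with 11.9 CPM, the median was 16.1 and the highest was number 6 with 29.5 CPM. The boxers had 21.4, 14.9, 13.6 and 21.3 CPM and the Boston terriers 18.6, 18.1 and 15.4 CPM, in the order of their numbers. The groups overlapped, with 4 of 11 French bulldogs above the comparison median. The log2 difference was 0.05 ± 0.19 (SE), with an interval from -0.35 to 0.44 (edgeR, adjusted p = 0.960), and it was -0.02 without French bulldog 6.

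Taken as folds of the comparison level, the 95% intervals of the 3 inhibitors lay between 0.736 and 1.39. Over all 18 libraries the SD of log2 CPM was 0.38 for MDM2, 0.38 for MDM4 and 0.34 for PPM1D, against a median of 0.65 over all genes tested. Ranked by that SD, MDM2 and MDM4 both stood at the 18.4th percentile of genes and PPM1D at the 13.5th. Without French bulldog 6 they stood at the 10.7th, 26.9th and 11.2th percentile. No library held any of the 3 above 3 times its median. The highest multiple of the median was 2.05 for MDM2, 1.81 for PPM1D (both in French bulldog 6) and 1.49 for MDM4 (in French bulldog 5).

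The log2 ratio of MDM2 to MDM4 counts, which needs no library size, averaged -0.68 ± 0.43 (SD) over the 11 French bulldogs and -0.83 ± 0.54 (SD) over the 7 comparison dogs. It ran from -1.55 in Boston terrier 2 to 0.02 in French bulldog 6, and the groups overlapped. The difference between groups was 0.15 and did not pass the test (two-sided exact permutation p = 0.523). Without French bulldog 6 the difference was 0.08 (exact p = 0.726).

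Among the targets, SESN1 was the member with the largest difference between the groups. It ran from 13.9 CPM in French bulldog 10 through a median of 26.4 to 52.4 in French bulldog 6. The boxers had 18.7, 21.6, 25.4 and 16.9 CPM for numbers 1, 3, 4 and 5, and the Boston terriers had 21.7, 15.6 and 10.8 CPM for numbers 2, 6 and 7. No comparison dog reached the level of the 6 highest French bulldogs, and 9 of 11 French bulldogs exceeded the comparison median. The means were 27.5 ± 10.7 CPM (SD, n = 11) and 18.7 ± 4.80 CPM (SD, n = 7). With French bulldogs 2 and 8 averaged as 1 dog the first mean was 27.7 ± 11.2 CPM (SD, n = 10), and 6 of 10 French bulldogs lay over the comparison dogs. The log2 difference of 0.56 ± 0.24 (SE; 95% interval 0.07 to 1.05), a fold of 1.47, did not pass the test after adjustment over all genes (edgeR, adjusted p = 0.434). As a single value it gave an exact permutation p of 0.0387 (two-sided, 31824 splits), which became 0.0559 without French bulldog 6 and 0.0481 with French bulldogs 2 and 8 summed, in a set of 7 members tested alike. The log2 difference was 0.33 against comparison dogs 1 to 4 and 0.96 against comparison dogs 5 to 7, whose library names belong to separate series of sample numbers. French bulldog 9, which had the second highest level with 40.9 CPM, was the lowest library for MDM4 and PPM1D.

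GADD45A had its highest level in French bulldog 6, with 68.6 CPM, and the other French bulldogs ran from 12.0 to 39.3 CPM. The median of all 11 was 19.03 CPM. Boxers 1, 3, 4 and 5 had 19.1, 23.5, 14.5 and 16.4 CPM and Boston terriers 2, 6 and 7 had 15.8, 41.1 and 19.4 CPM. The groups overlapped, with 4 French bulldogs below and 1 above every comparison dog. The log2 difference was 0.16 ± 0.34 (SE), with an interval from -0.55 to 0.87 (edgeR, adjusted p = 0.908), and it changed sign to -0.10 without French bulldog 6.

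BAX had the widest spread of the members, with an SD of log2 CPM of 1.07 (the 74.3rd percentile of genes). French bulldogs 2 and 8 had 0.892 and 0.814 CPM, from 8 counts each, and French bulldog 6 had 21.3 CPM. The other 15 libraries lay between 3.31 and 9.85 CPM, with boxers between 5.81 and 7.35 CPM and Boston terriers between 5.08 and 9.85 CPM. The outermost libraries on both sides were thus French bulldogs. The log2 difference was 0.08 ± 0.47 (SE), with an interval from -0.90 to 1.06 (edgeR, adjusted p = 0.973). It was -0.20 without French bulldog 6, 0.34 without French bulldogs 2 and 8, and 0.05 without all 3.

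TP53I3 was measured at 5 to 36 counts per library, close to the limit of the depth. French bulldogs ran from 0.540 CPM in number 9 through a median of 1.22 to 3.35 in number 4. Boxers 1, 3, 4 and 5 had 3.21, 3.29, 1.53 and 1.51 CPM and Boston terriers 2, 6 and 7 had 0.753, 0.418 and 0.994 CPM. The French bulldogs overlapped both of the other breeds. The log2 difference against the pooled comparison group was -0.12 ± 0.44 (SE), with an interval from -1.04 to 0.80 (edgeR, adjusted p = 0.950). It was -0.51 against comparison dogs 1 to 4 and 0.65 against comparison dogs 5 to 7.

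**Figure D2:**
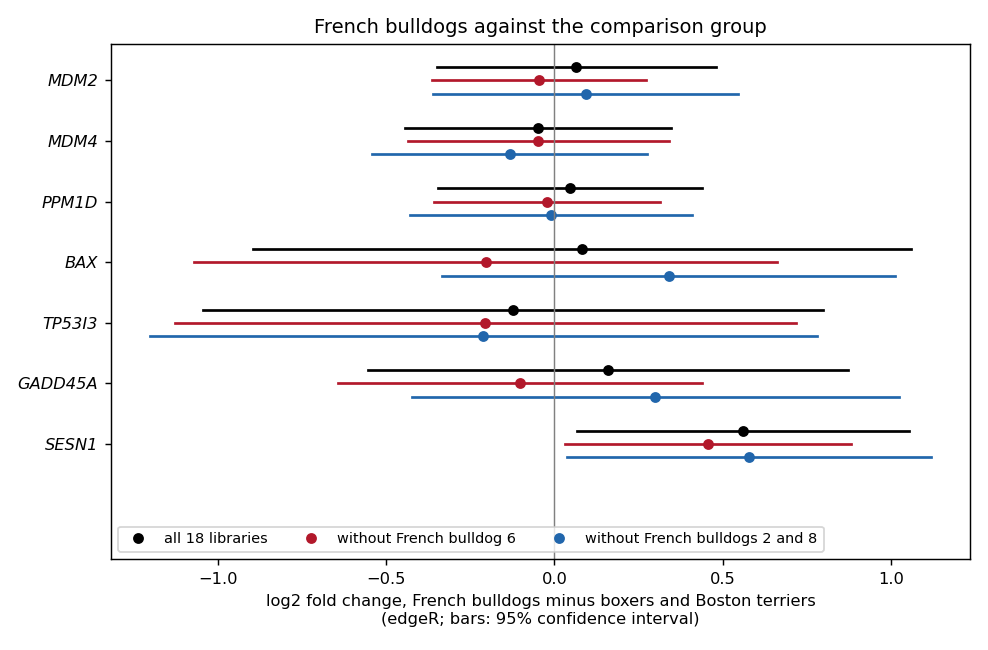
Log2 fold change of each member between French bulldogs and the comparison group (points) with its 95% confidence interval (bars), from all 18 libraries, without French bulldog 6, and without French bulldogs 2 and 8. The intervals of MDM2, MDM4, PPM1D, BAX, TP53I3 and GADD45A include 0 in all 3 fits, and that of SESN1 runs from 0.07 to 1.05 with all libraries.

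With the breeds of the comparison group taken apart, none of the members passed an adjusted p of 0.05 in a fit with 3 breeds over 17934 genes. In that fit 0 genes passed between French bulldogs and boxers (0.0%), 1 between French bulldogs and Boston terriers (0.00558%) and 0 between boxers and Boston terriers (0.0%). At an unadjusted p under 0.05 these comparisons held 8.26%, 3.84% and 2.12% of genes and 0, 1 (SESN1) and 1 (TP53I3) of the members. TP53I3 was the member that separated boxers from Boston terriers. All 4 boxers lay above all 3 Boston terriers, the log2 difference was 1.71 ± 0.65 (SE; 95% interval 0.33 to 3.08), and it did not pass adjustment (edgeR, adjusted p = 1). The exact permutation p was 0.0286, the smallest that 35 splits allow. Among all genes tested, 7.25% did not overlap between these breeds, against 1 of the 7 members.

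SESN1 had a log2 difference of 0.78 (95% interval 0.09 to 1.47) between French bulldogs and Boston terriers and of 0.42 (-0.18 to 1.01) between French bulldogs and boxers, with adjusted p of 0.983 and 0.691 in edgeR. The order of mean levels was French bulldogs, boxers with 20.6 ± 3.70 CPM (SD, n = 4), and Boston terriers with 16.0 ± 5.50 CPM (SD, n = 3), and the difference between boxers and Boston terriers did not pass (two-sided exact permutation p = 0.229). For MDM2, MDM4 and PPM1D the log2 differences in the 3 comparisons of breeds lay between -0.15 and 0.13.

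The wider pathway was read from lists of 84 genes, of which 65 had a row and 62 were tested. None passed an adjusted p of 0.05 in edgeR. At an unadjusted p under 0.05, 6 were higher and 1 lower in French bulldogs, together 11.3% beside 10.6% of all genes. The median log2 difference was 0.11, against 0.04 over all genes tested.

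Of 12 upstream kinases and activators tested, 6 had a positive and 6 a negative difference. TP53BP1, an adaptor at DNA breaks, had 110 ± 25.5 CPM (SD, n = 11) and 140 ± 10.6 CPM (SD, n = 7), a log2 difference of -0.34 (edgeR, adjusted p = 0.459). CHEK1, a checkpoint kinase, had a difference of 0.67 (edgeR, adjusted p = 0.577). Of 9 ubiquitin and deacetylase regulators, 7 had a positive difference. The deacetylase SIRT1 had 0.47 (edgeR, adjusted p = 0.446) and the deubiquitinase USP10 had 0.38 (edgeR, adjusted p = 0.494).

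The 23 other targets of p53 that were tested had 15 positive and 8 negative differences and a median of 0.09, and without French bulldogs 2, 6 and 8 they had 9 positive and 14 negative ones and a median of -0.03. POLH, a DNA polymerase that copies past ultraviolet lesions, averaged 10.1 ± 4.21 CPM (SD) over the 11 French bulldogs and 4.89 ± 1.29 CPM (SD) over the 7 comparison dogs. Its log2 difference of 1.04 ± 0.28 (SE) missed the threshold in edgeR (adjusted p = 0.433) and passed it in DESeq2 (adjusted p = 0.0413), which called POLH alone of the wider genes. French bulldog 6 had the highest level of the 18 libraries, with 17.2 CPM, French bulldogs 2 and 8 had 12.0 and 17.0 CPM, and the other 15 reached 11.97 CPM. With this pair summed, POLH was not called by DESeq2 (1.00, adjusted p = 0.0803) or edgeR (0.98, adjusted p = 0.509). Without the pair its log2 difference was 0.89, and without French bulldogs 2, 6 and 8 it was 0.72, neither called in edgeR. Without French bulldog 6 it was 0.96 in edgeR (adjusted p = 0.363) and in DESeq2 (adjusted p = 0.0517). TRIAP1, which restrains apoptosis, differed by 0.39 (edgeR, adjusted p = 0.433). CDKN1A, the cell cycle inhibitor p21, had 4.88 ± 3.56 CPM (SD, n = 11) and 3.04 ± 1.30 CPM (SD, n = 7), with a log2 difference of 0.68 (edgeR, adjusted p = 0.599). CCNG1 (cyclin G1) differed by 0.50, the apoptosome scaffold APAF1 by 0.47, and the repair factor XPC by -0.17, none of them called.

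The 7 apoptosis targets all had a positive difference, with a median of 0.39. Without French bulldog 6, 5 of the 7 were positive and their median was 0.01, beside 0.05 for all genes, and without French bulldogs 2, 6 and 8 it was 2 of the 7, with a median of -0.07. Proliferation genes and macrophage and microglia markers were also mostly higher in French bulldogs. All 14 proliferation genes had a positive difference (median 0.94, 6 at an unadjusted p under 0.05 and 0 called in edgeR). Without French bulldog 6 all 14 were still positive (median 0.79). Without French bulldogs 2, 6 and 8 it was 11 of 14 (median 0.28, 0 at an unadjusted p under 0.05). Of the 9 macrophage and microglia markers 8 had a positive difference (median 1.95). Without French bulldog 6 it was 6 of 9 (median 0.32), and without French bulldogs 2, 6 and 8 it was 7 of 9 (median 0.45). Their part in the differences of the pathway was not tested. The 7 targets in metabolism and oxidative stress had 5 negative differences and a median of -0.26. GLS2, a glutaminase, differed by -0.65 and TIGAR, which lowers glycolysis, by -0.37, neither of them called. In the BCL2 family, BCL2A1 differed by 3.05 (edgeR, adjusted p = 0.433), with 239 CPM in French bulldog 6 and at most 7.58 CPM in the other 17 libraries, and BID, which links death receptors to BAX, differed by 0.58 (edgeR, adjusted p = 0.433). Among the 9 genes related to the members by sequence, SESN3 differed by 0.60 and PPM1A by 0.23, neither of them called, and SESN3 had 795 CPM in French bulldog 6 and at most 245 CPM elsewhere.

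**Figure D3:**
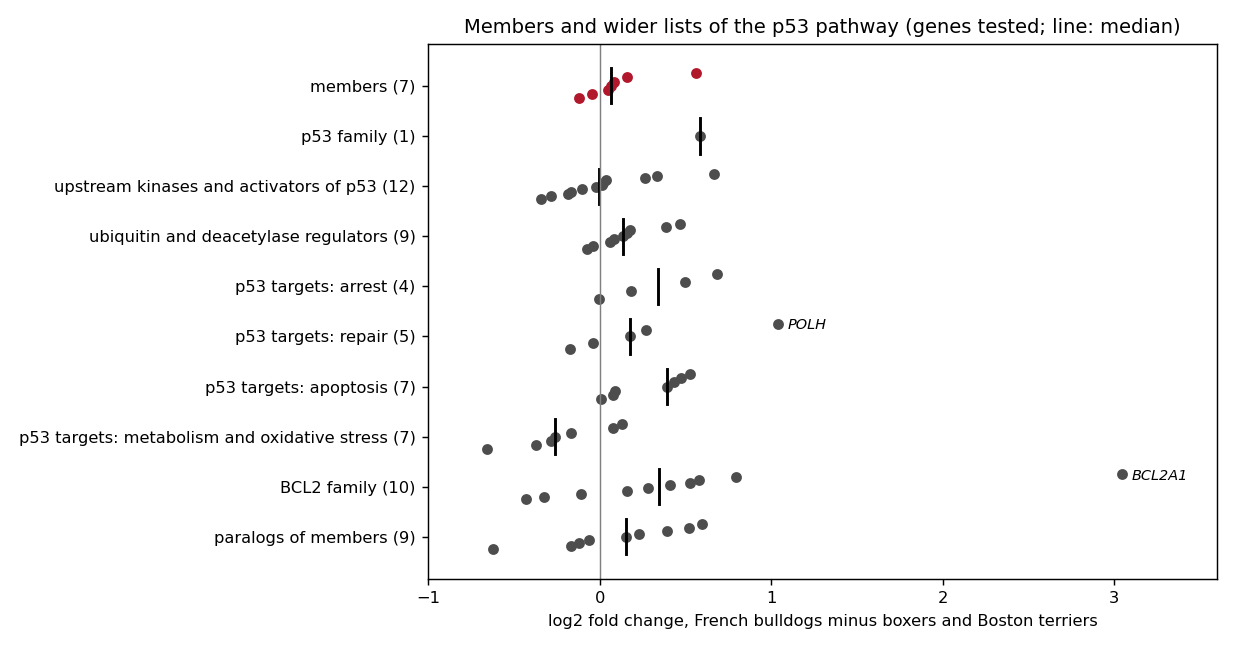
Log2 fold change between French bulldogs and the comparison group for the 7 members (red) and for the 62 tested genes of the wider lists (grey), 1 point per gene, with the number tested in parentheses and a line at the median. Most points lie within 1 log2 unit of 0, POLH lies at 1.04 and BCL2A1 at 3.05, and no plotted gene passed the adjusted test in edgeR, while DESeq2 called POLH with all 18 libraries.

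French bulldog 6 was the highest of the 18 libraries for 5 of the 7 members, while 20.8% of all genes tested were highest there. Against the median of the other 17 libraries its level was 3.61 times as high for GADD45A, 3.44 times for BAX, 2.41 times for SESN1, 2.06 times for MDM2 and 1.83 times for PPM1D. MDM4, at 1.18 times, and TP53I3, at 2.13 times, stayed within the range of the others. CDKN1A was 3.90 times, CCNG1 5.54 times, the death receptor FAS 10.7 times and PMAIP1, the BH3-only protein NOXA, 9.84 times the median of the others, each the highest of the 18. Of the 23 other targets tested, 10 were highest in French bulldog 6 and 2 lowest. Of its 9 macrophage and microglia markers 8 were the highest of the 18 libraries, and the microglia marker P2RY12, with 6.87 CPM, was not. Its T cell markers were high as well (135 CPM over 6 genes, 2.16 to 45.5 elsewhere). Its 14 proliferation genes summed to 1491 CPM, and 7 of the 14 were the highest of the 18. The sum was 1432 and 1575 CPM in French bulldogs 2 and 8 and 122 to 820 CPM in the other 15 libraries. With that like sum, French bulldogs 2 and 8 had BAX, FAS and CDKN1A below the other 16 libraries. The part of these cells and of proliferation in the levels was not tested.

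French bulldogs 2 and 8 had BAX lower than the other 16 libraries, by 8.32-fold from the median of the 15 that remain when French bulldog 6 is also set aside. BAX was the only 1 of the 7 members below all 16, while 8.46% of genes tested were, and 3.89% of genes were lower still relative to that median. FAS, with 0.669 and 0.611 CPM from 6 counts each, was 6.76-fold under the median, CDKN1A 2.85-fold and CCNG1 1.69-fold, all below the other 16 libraries, CDKN1A only narrowly (9 and 11 counts, 1.00 and 1.12 CPM against 1.13 in Boston terrier 2). The targets did not all go that way, since 3 of the 23 other targets were below all 16 libraries and 1 above. That 1 was FANCC, a gene of DNA crosslink repair, at 2.42 times the median, and POLH at 2.54 times, APAF1 at 1.90 times and PIDD1 at 1.69 times also lay over the median. MDM2 was at the median, with a ratio of 0.986. Above all 16 libraries were the checkpoint kinases CHEK1 (3.99 times the median) and ATM (1.68 times) and the p53 relative TP73 (10.1 times, from 47 and 65 counts), with the acetyltransferase EP300 (1.44 times), USP10 (2.05 times) and SIRT1 (2.34 times), while the related kinase ATR (0.489 times) was below all 16 and TP53BP1 was at 0.696 times the median. Over the members and wider lists together, 7 of 69 genes were below and 8 above all 16 libraries, beside 8.46% and 10.2% of all genes. The genes above were mostly in the lists of the p53 family and its regulators, where 6 of 22 were above and 1 below all 16 libraries. The proliferation genes of this pair summed to 1432 and 1575 CPM, against 122 to 820 in the other 15 libraries, and its oligodendrocyte lineage markers to 6800 and 6884 CPM, against 1127 to 3395. Most of the latter sum was PDGFRA (4963 and 4975 CPM, 5.70 times the median), and the list did not rise as a whole. OLIG1, CSPG4 and NKX2-2 were also above all 16 libraries, OLIG2 was at 0.979 and SOX10 at 1.38 times the median, and SOX8 was at 0.270 times, below the other 15. Its astrocyte markers (515 and 618 CPM, against 969 to 5385), myelinating oligodendrocyte markers (435 and 452 CPM, against 737 to 8041) and endothelial markers (150 and 155 CPM, against 186 to 875) lay below the other 15, and its macrophage and microglia markers (53.2 and 64.7 CPM, against 50.0 to 312) inside their range. Its neuron markers summed to 60.6 and 84.6 CPM, against 64.7 to 1319 CPM with a median of 361 CPM in the other 15. Their part in these levels was not tested.

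**Figure D4:**
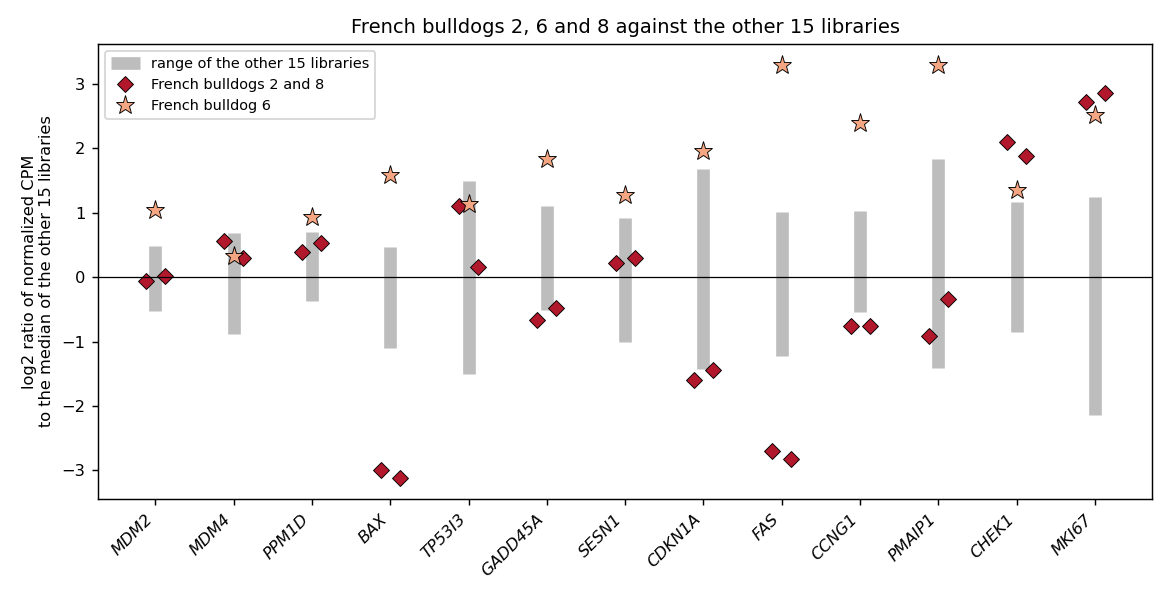
Log2 ratio of normalized CPM to the median of the other 15 libraries for the 7 members and 6 more genes, in French bulldogs 2 and 8 (diamonds) and French bulldog 6 (stars), with the range of the other 15 libraries as a grey bar. The diamonds of BAX, FAS, CCNG1 and, narrowly, CDKN1A lie below the grey bars and those of MDM2 within its bar. Among the members, the stars lie above the bars for MDM2, PPM1D, BAX, GADD45A and SESN1.

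The genes beside BAX were also read in French bulldogs 2 and 8. Gene order was taken from RefSeq (UU_Cfam_GSD_1.0, not the assembly the reads were mapped to), and this look was added after the BAX values were seen. Of the 20 tested genes nearest to BAX, 10 on each side, 6 were below all other 16 libraries, beside 8.46% of all genes, and 14 were not. The median ratio of the 20 was 0.462, with single genes from 0.0668 to 1.35, against 0.995 over the 641 tested genes of that chromosome. SLC17A7 (0.133), among the 20, is also a neuron marker, and the part of cell types in these ratios was not tested. For the 20 genes nearest to MDM2 the median ratio was 1.12, for the 11 nearest to FAS it was 1.03, and for the 20 nearest to CDKN1A it was higher than both, with 1 gene below all in each.

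The members were then compared with each other and with the mean of 14 proliferation genes over 16 dogs, with French bulldogs 2 and 8 summed and French bulldog 6 left out. None of 28 relations passed an adjusted p of 0.05 for both Pearson's r and Spearman's rho. The strongest of them by r was a negative one between GADD45A and the proliferation genes, which did not pass (r = -0.67, permutation p = 0.0037, adjusted p = 0.103; rho = -0.68, permutation adjusted p = 0.101). The sign was the same in both groups, with r = -0.79 in 9 French bulldogs and -0.47 in 7 comparison dogs, and r was -0.64 without the 2 dogs farthest from the median of GADD45A. Over all 18 libraries, in which French bulldog 6 takes part, r was -0.23 (permutation p = 0.368). MDM4 and PPM1D had r = 0.60 and rho = 0.59 (permutation adjusted p = 0.204 and 0.172), with 0.61 and 0.53 inside the groups.

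PPM1D was higher where proliferation genes were higher in French bulldogs. Over the 9 French bulldogs alone r was 0.86 (permutation adjusted p = 0.0172) and rho 0.95 (permutation adjusted p = 0.0112), and r was 0.85 without the 2 dogs farthest from the median of PPM1D. In the 7 comparison dogs r was -0.03, and over all 16 dogs r was 0.55 (permutation adjusted p = 0.244). Over all 18 libraries rho was 0.72 (permutation adjusted p = 0.0336) and r was 0.66 (permutation adjusted p = 0.0809). PPM1D and TP53I3 had r = 0.91 in the 9 French bulldogs (permutation adjusted p = 0.0172) and rho = 0.87 (permutation adjusted p = 0.0634). Their r was -0.0056 in the 7 comparison dogs. The difference between the groups was not tested.

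**Figure D5:**
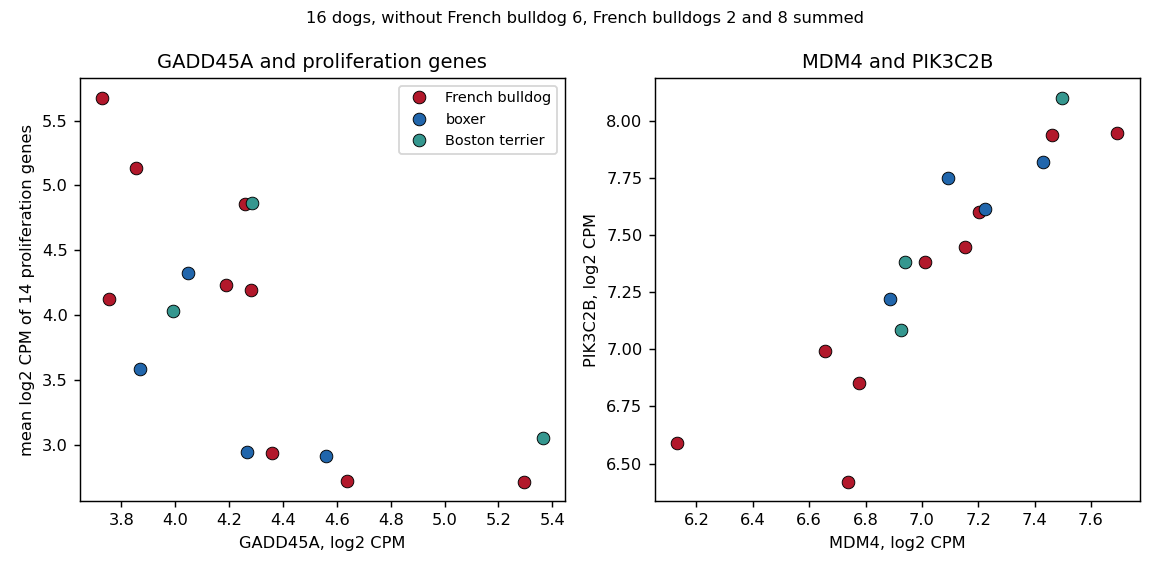
Left, mean log2 CPM of 14 proliferation genes against log2 CPM of GADD45A. Right, log2 CPM of PIK3C2B against that of MDM4, 1 point per dog for 16 dogs coloured by breed. Pearson's r is -0.67 on the left and 0.90 on the right.

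The genes most like each member over the same 16 dogs, by Pearson's r of log2 CPM among 8453 genes with a symbol and a mean log2 CPM above 3, are given as a description. For MDM4 they were SOX10, PIK3C2B and ADAL, with r of 0.90, 0.90 and 0.89. For MDM2 they were ST13, YEATS4 and PAPOLG, with r of 0.89, 0.86 and 0.82. For PPM1D they were NKAPL, C8H14orf93 and PLCG1 (0.86, 0.85 and 0.85). SOX10 is a transcription factor of the oligodendrocyte lineage, while PIK3C2B is the RefSeq neighbour of MDM4, with no protein-coding gene between them, and YEATS4 and MDM2 have 3 genes between them.

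MDM4 and PIK3C2B had r of 0.90 in the 9 French bulldogs and 0.91 in the 7 comparison dogs, but 0.25 over all 18 libraries, in which French bulldog 6 takes part. PPP1R15B, with 1 gene between it and MDM4, had r = 0.73 with MDM4, PLEKHA6, with 2 genes between, had 0.24, and LRRN2, the neighbour on the other side, had -0.0039. MDM2 and YEATS4 had r of 0.92 and 0.94 within the groups and 0.50 over all 18 libraries. Of the other genes near MDM2, only CCT2, NUP107 and FRS2 were read here. They had r of 0.73, 0.60 and 0.57 over the 16 dogs and 0.80, 0.54 and 0.12 over all 18 libraries. CDK4, with 48 genes between it and MDM2, had 0.59 and 0.44. Near PPM1D, APPBP2 and BCAS3 had r of 0.34 and 0.33 over the 16 dogs, TBX2 had -0.0076 and USP32 had -0.54. In French bulldogs and comparison dogs r was 0.58 and -0.0038 for APPBP2 and -0.31 and 0.93 for BCAS3. For TBX2 it was -0.23 and 0.25, and for USP32 -0.69 and -0.071. Over all 18 libraries APPBP2 had 0.050, BCAS3 -0.26, TBX2 -0.42 and USP32 -0.31. The genes around MDM2, MDM4 and PPM1D were named after their values were seen.

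Among the targets, BAX was most like GNAI2, PHPT1 and SRSF11 (r of 0.91, 0.90 and 0.89), in which the summed French bulldog 2 and 8 takes part. SESN1 was most like KIF1B, FAM135A and MTO1 (0.83, 0.82 and 0.80). GADD45A was most like COG3, IRAK2 and TEDC1 (0.78, 0.77 and 0.76), and TP53I3 was most like GGCX, HEATR5B and ZNF513 (0.76, 0.74 and 0.73).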

How the data were processed

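RNA from formalin-fixed tumor tissue was sequenced by the authors in paired-end reads after ribosomal RNA removal. Per the submitters' processing notes and methods, reads were trimmed (Trimmomatic 0.33), mapped with HISAT2 2.1.0 to the canFam6 dog genome and counted per gene with featureCounts. The authors deposited raw counts, with no normalization, for 29993 genes. The counting settings for strand and reads with several positions are not given in the sources used here. All 18 columns were mapped to a sample by the library name in its description, and groups are the breeds of the labels. Nothing in the labels names repeat samples of a dog other than the case number shared by French bulldogs 2 and 8.

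Counts of all genes were fitted with the quasi-likelihood method of edgeR 4.0.16 in R 4.3.3 as the main test, on those kept by filterByExpr (16495), with TMM factors, robust dispersion, no covariate, two-sided p and Benjamini-Hochberg adjustment, called under 0.05. Standard errors were obtained as log2 fold change over root F. DESeq2 1.42.0, which the authors used, and limma-voom (limma 3.58.1) were alternatives, with 2 other normalizations, 2 other filters, removal of small non-coding RNAs, library subsets, a replicate block and each library left out. Exact permutation tests enumerated every assignment of the group sizes, and correlations were tested with 100000 permutations. Log2 CPM had a prior count of 2. The design listed 9 members; since 7 had a row, the relations came to 21 pairs of members and 7 with proliferation. Ratios for French bulldogs 2 and 8 and for the genes beside BAX, fits without this pair, and DESeq2 with it summed or without French bulldog 6 were added after the counts were seen. Fits were first tested on simulated data with known changes. Intervals of fold changes include the spread between libraries, and the limit of 3 counts covers counting error only.

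The members and lists were chosen with earlier results of these data known, so no p of a difference between groups is adjusted over a list alone. The adjusted p of the correlations covers only the 28 relations of the members within each set of dogs, and that limit holds for it. Named genes are the members, the 2 genes of each wider list with the smallest p, and for each member the 3 genes most alike. FAS, PMAIP1, ATM, ATR, EP300, FANCC, PIDD1 and the neighbours of members were named after their values were seen. Results for some items are not reported here. Gene names are those of the counts, and neighbours come from RefSeq. Tables and figures were made in Python 3.11.15 (numpy 2.4.6, pandas 2.3.3, matplotlib 3.10.9).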

Additional observations from a re-analysis of the deposited data

Results flagged for a closer look

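GADD45A in Boston terrier 6 had 41.1 CPM and lay far from the other 6 comparison dogs, which had 14.5 to 23.5 CPM. Its gap to the nearest dog was 0.663 of the range of the 7 dogs, above the 95% critical value of Dixon's test of 0.568. On log2 CPM the gap was 0.538 of the range, under that value, so that the dog stands apart on the linear scale alone. The test was run on 14 groups, and chance flags about 1 in 20 groups. Without this dog, GADD45A had a log2 difference of 0.40 between French bulldogs and the remaining dogs, and it was not called.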

How the results depend on the processing

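No member was called under any of 34 alternatives between French bulldogs and the comparison group, nor under 20 between each pair of breeds. Few genes were called at all, with 0.00606% in the main test, 0.0183% without French bulldog 6 and 0.278% in DESeq2. Between breeds the main fit called at most 0.00558%. Calls of 0 among 7 members were thus near the share of all genes. SESN1 kept its direction in all 34, with log2 differences of 0.33 to 0.96 and a lowest adjusted p of 0.311 (edgeR and the other tools). The sign of each other member depended on the fit. TP53I3 was -0.51 against comparison dogs 1 to 4 alone. Against comparison dogs 5 to 7 alone, MDM2 was -0.040, BAX -0.16, TP53I3 0.65 and GADD45A -0.074. Without French bulldogs 2, 6 and 8, MDM2 was -0.072, PPM1D -0.14 and GADD45A -0.022, and without 2 and 8 alone PPM1D was -0.0091. DESeq2 without French bulldog 6 gave MDM2 -0.050, PPM1D -0.027, BAX -0.21 and GADD45A -0.11, and limma-voom gave BAX -0.36. Leaving out 1 library at a time gave MDM2 -0.047 to 0.15, MDM4 -0.12 to 0.021, PPM1D -0.021 to 0.10, BAX -0.20 to 0.20, TP53I3 -0.31 to 0.13, GADD45A -0.10 to 0.40 and SESN1 0.46 to 0.68. BAX and TP53I3 were not tested under a minimum of 10 counts in every library. The cause of these changes was not tested.

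With a replicate block over the numbers 1 to 7, MDM4 was 0.089, BAX -0.021, TP53I3 0.26 and GADD45A -0.023, with 0 members called. The same libraries without the block gave MDM4 0.11, BAX 0.33, TP53I3 0.14 and GADD45A 0.16, so that the block itself turned the sign of BAX and GADD45A. The numbers name samples and do not pair them. The 7 pairs correlated at -0.50 to 0.21, with 3 over 0.1, and 2 samples were most like their own number.

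Of the exact tests between French bulldogs and the whole comparison group, 1 passed 0.05 with all libraries (SESN1) and with French bulldogs 2 and 8 summed, and 0 without French bulldog 6. Of the 28 relations, 1 passed both tests over French bulldogs alone (PPM1D with proliferation), against 0 over all 18 libraries and 0 over the 16 dogs. BAX and TP53I3, at 8 to 205 and 5 to 36 counts, are the members that the depth limits most.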
